A study of Capra hircus with 9 samples.

Results

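The Wnt genes described here are 10 rows of a goat uterine read count table, found by the exact gene name: the ligands WNT7A, WNT2B, WNT5A and WNT11, the secreted inhibitors WIF1, SFRP1 and SFRP2, the stem cell receptor LGR5, and the pathway targets AXIN2 and LEF1. All 10 names had a row among the 25671 gene rows of the table, and all 10 passed the low-count filter that left 16098 genes for testing. The samples are polyadenylated RNA of uterus from Liaoning Cashmere goats at day 6, day 16 and day 19, with 3 libraries per day. The labels call the days peri-implantation. They state no treatment, genotype or age of the goats, nor the event from which the days are counted, and they do not say whether the goats were pregnant or whether the 3 libraries of a day came from separate animals. P-values therefore measure the spread between these libraries, which may in part be technical.

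Wnt proteins are secreted lipid-modified signals that bind Frizzled receptors on nearby cells. In the canonical branch, binding stops the breakdown of beta-catenin, which then enters the nucleus and works with TCF/LEF factors to switch on targets such as AXIN2. WNT5A and WNT11 are known mainly for the branch that acts without beta-catenin. In the mouse uterus, Wnt7a made by the epithelium is required for gland formation, and a controlled level of Wnt signalling is known to matter for implantation.

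Of these 10 genes, 7 were called lower at day 19 and 5 at day 16, each over day 6. Of all genes tested, 10.2% and 3.74% were. Without each library in turn, 5 of the 7 and 3 of the 5 calls held. By day 19, LGR5 stood 10.1-fold lower than at day 6, WIF1 14.5-fold, AXIN2 6.37-fold and WNT2B 3.20-fold. WNT11 took another course, low at day 16 and back at the day 6 level by day 19. LEF1 passed in no edgeR comparison of the 9 libraries, and limma voom called it lower at day 19. Values below are CPM, read counts scaled to library size with the trimmed mean of M-values (TMM). Changes are log2 fold changes of a later day over an earlier one, with standard error (SE), and a gene is said to have risen or fallen when its adjusted p was under 0.05 over all genes tested (edgeR quasi-likelihood, Benjamini-Hochberg). No transcript lengths were used, so levels are compared between days and never between genes.

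The libraries held 8712751 to 11074693 counts. The labels name the tissue differently in different fields: uterus, endometrial epithelium and testis. The listed stromal markers summed to 18250 to 32367 CPM over the 9 libraries, the smooth muscle markers to 9272 to 44005 CPM and the epithelial markers to 683 to 1224 CPM. Testis germ cell markers summed to 0.0971 to 1.98 CPM, with SYCP3, TNP1 and ODF1 at 0 counts in every library. By these markers the libraries held stromal, muscle and epithelial RNA together, and the germ cell markers were at or near 0. Several marker lists moved with the days. The gland markers summed to 45.5 to 62.4 CPM at day 6, 247 to 370 CPM at day 16 and 132 to 334 CPM at day 19, and all 3 that were tested rose at both later days over day 6. The macrophage markers summed to 166 to 299, 249 to 327 and 426 to 603 CPM over the same days. Of these, 1 of 4 rose at day 16 and 3 of 4 at day 19, each over day 6. Of all genes tested, 5.12% rose at day 16 and 12.7% at day 19, each over day 6. Endothelial markers summed to 847 to 1049, 1095 to 1378 and 649 to 770 CPM. T and NK lymphocyte markers summed to 59.8 to 105 CPM over all libraries, and trophoblast markers to 4.23 to 9.37 CPM. Of 9 listed trophoblast markers, 5 had a row and 2 were tested, so this sum covers only part of the list. The part of these moves in the Wnt results was not tested. Day 19 replicate 1 stood apart from the other libraries of its day: over the genes tested, Spearman's rho was 0.894 and 0.897 with day 19 replicates 2 and 3, and 0.945 to 0.963 with the day 16 libraries. Day 6 replicate 1 held 9272 CPM of smooth muscle markers, against 34130 and 27328 CPM in replicates 2 and 3. Results that rest on these libraries are given with and without them.

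**Figure D1:**
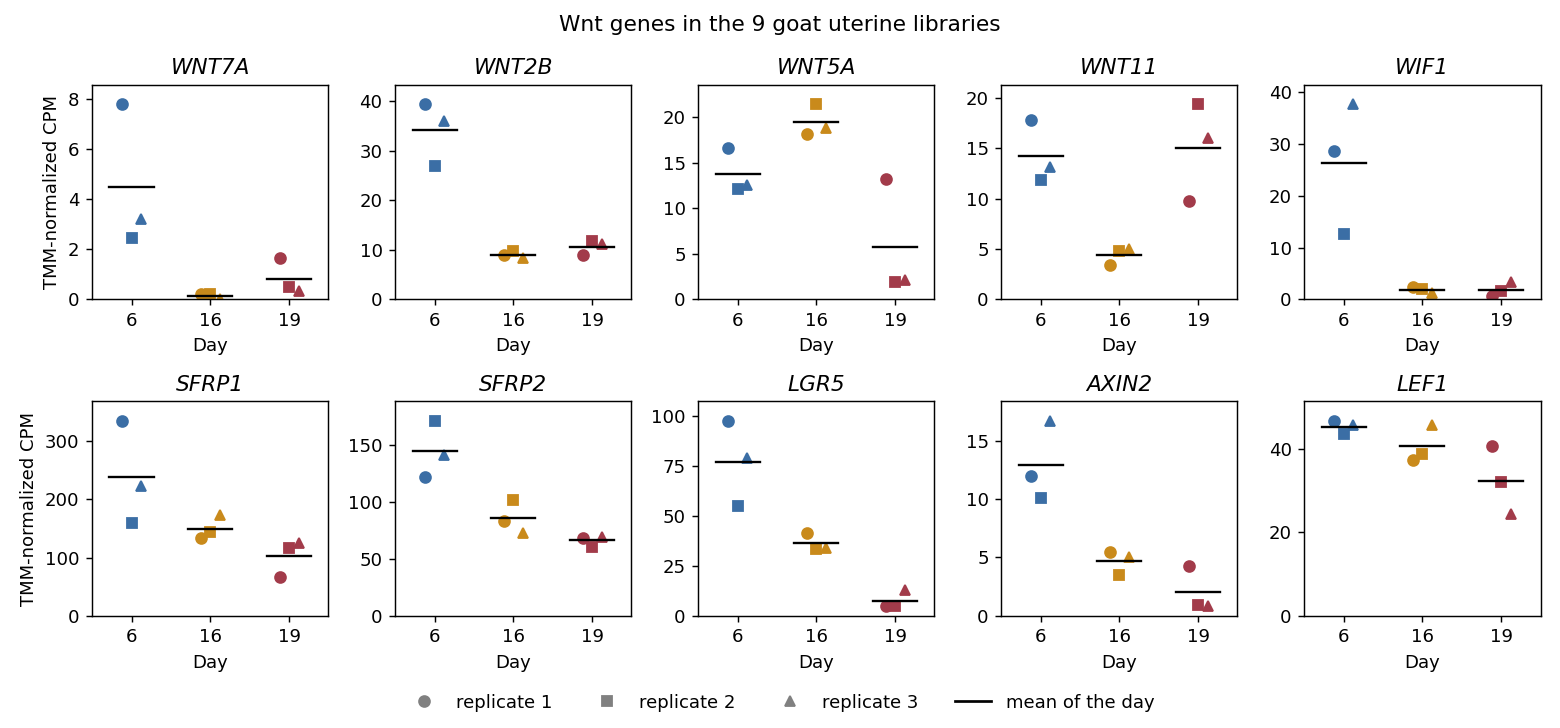
TMM-normalized CPM (vertical axis, linear from 0, own scale per panel) of the 10 Wnt genes at days 6, 16 and 19 (horizontal axis). Each symbol is a library and its shape gives the replicate number; the black line is the mean of a day. WNT2B and WIF1 are low in all 6 later libraries, WNT11 dips at day 16, and day 19 replicate 1 lies well above replicates 2 and 3 for WNT5A and AXIN2.

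WNT7A, the ligand of the uterine epithelium, was close to the detection limit at day 16. It had 84, 24 and 33 counts in the 3 day 6 libraries, 2, 2 and 0 at day 16, and 17, 5 and 3 at day 19. These stand for 7.80, 2.47 and 3.22 CPM at day 6, 0.211, 0.228 and 0 CPM at day 16, and 1.65, 0.499 and 0.317 CPM at day 19. Every later library was below every day 6 library, and the day 19 libraries were all above those of day 16. The 0 in day 16 replicate 3 allows up to 0.270 CPM (3 counts), and the 4 counts of day 16 together have an exact 95% Poisson interval of 1.09 to 10.2 counts, which covers counting error only.

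The fitted change of WNT7A was -4.90 (SE 0.94, adjusted p = 0.0114) at day 16 over day 6. It was -4.23 without day 6 replicate 1 and -4.27 without day 16 replicate 3, and both still passed. At day 19 over day 6 it was -2.42 (SE 0.75, adjusted p = 0.0447). This call was fragile. When a day 6 library was left out, the adjusted p became 0.172 (replicate 1), 0.0605 (replicate 2) or 0.0809 (replicate 3). Omitting day 16 replicate 1 or 2 gave 0.0651 or 0.0637, and omitting day 19 replicate 2 or 3 gave 0.134 or 0.127. Without day 6 replicate 1 the change was -1.77, and without day 19 replicate 1 it was -3.41 with an adjusted p of 0.00531. From day 16 to day 19 the change was 2.48 (SE 1.01, adjusted p = 0.175), which did not pass. The epithelial marker sum was 1174 to 1224 CPM at day 16, against 683 to 707 CPM at day 6. At day 19 it was 763 to 1216 CPM. Of its 8 genes, CLDN4 rose 5.64-fold at day 16 (298 ± 79.2 CPM at day 16, against 52.8 ± 10.3 CPM at day 6, SD, 3 libraries each; adjusted p = 0.00623) and the other 7 were not called in edgeR. Among those 7, KRT18, ESRP1 and ESRP2 had changes of -0.66, -0.31 and -0.82, and the changes of the rest are not given here. Counting both directions at day 16 over day 6, 5 of the 8 had an unadjusted p under 0.05, DESeq2 called 3 and voom called 7. At day 19 over day 6 these counts were 5, 4 and 6. Over all 16098 genes, they were 3403, 2274 and 3783 at day 16, and 6138, 4932 and 9405 at day 19. By day 19, CLDN4 was higher than at day 6, and ESRP1 and ESRP2 fell by 1.16 and by 1.03 (adjusted p = 0.00576 and 0.0142). The part of epithelial content in the WNT7A values was not tested.

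WNT2B, a canonical ligand, fell between day 6 and both later days. It measured 39.4, 26.9 and 36.1 CPM at day 6, 8.85, 9.80 and 8.29 CPM at day 16, and 8.94, 11.8 and 11.2 CPM at day 19. The later libraries lay in a narrow band far below all day 6 libraries. WNT2B fell by 1.93 (SE 0.22, adjusted p = 0.000747) at day 16 and by 1.68 (SE 0.22, adjusted p = 0.000908) at day 19, each over day 6 on the log2 scale. Day 19 and day 16 overlapped, with a change of 0.25 (SE 0.22, adjusted p = 0.483). Both calls held without each library in turn.

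WNT5A, a ligand known for beta-catenin-independent signalling and for shaping uterine crypts in the mouse, depended on a single day 19 library. Its values were 16.6, 12.2 and 12.6 CPM at day 6, 18.1, 21.4 and 18.8 CPM at day 16, and 13.2, 1.90 and 2.12 CPM at day 19. Replicates 2 and 3 of day 19 were below every other library, while replicate 1 was within the day 6 range. With all libraries no comparison passed in edgeR: the change was 0.50 (SE 0.60, adjusted p = 0.750) at day 16 over day 6, -1.75 (SE 0.63, adjusted p = 0.143) at day 19 over day 16 and -1.26 (SE 0.62, adjusted p = 0.169) at day 19 over day 6. Other tools on the same 9 libraries did call WNT5A. DESeq2 called day 19 over day 16 (-1.76, adjusted p = 0.0456). Voom with quality weights called day 16 over day 6 (0.57, adjusted p = 0.033), day 19 over day 16 (-3.15, adjusted p = 0.000135) and day 19 over day 6 (-2.59, adjusted p = 8.53e-05). Without day 19 replicate 1, WNT5A was -3.26 (SE 0.25, adjusted p = 3.34e-05) at day 19 over day 16 and -2.76 (SE 0.25, adjusted p = 3.09e-05) over day 6. Which of the day 19 libraries is typical of the day cannot be told apart with 3 libraries.

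WNT11, also known mainly for beta-catenin-independent signalling, was lowest at day 16. It stood at 17.8, 11.8 and 13.2 CPM at day 6, 3.37, 4.78 and 5.05 CPM at day 16, and 9.81, 19.4 and 16.1 CPM at day 19. The day 16 libraries lay below all others, and days 6 and 19 overlapped. WNT11 fell by 1.69 (SE 0.32, adjusted p = 0.0101) at day 16 over day 6, and the adjusted p was 0.0501 without day 16 replicate 1. It rose by 1.77 (SE 0.32, adjusted p = 0.0452) at day 19 over day 16. That second call passed without day 19 replicate 1 (2.02, adjusted p = 0.000291) and was lost when any other single library was left out. The adjusted p was 0.0791, 0.0871 or 0.0922 on omitting a day 6 library (replicate 1, 2 or 3), 0.131, 0.102 or 0.175 for day 16 in the same order, and 0.129 or 0.125 for replicate 2 or 3 of day 19. The size of the rise stayed between 1.56 and 2.02 in these fits. Day 19 over day 6 gave 0.08 (SE 0.30, adjusted p = 0.866).

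LGR5, the receptor for R-spondins that marks stem cells in several epithelia, stepped down at each time. It measured 97.7, 54.9 and 79.1 CPM at day 6, 41.6, 33.7 and 34.3 CPM at day 16, and 5.05, 4.99 and 13.0 CPM at day 19. No library of a day overlapped with one of another day. LGR5 fell by 3.33 (SE 0.40, adjusted p = 0.000682) at day 19 over day 6, or 10.1-fold, and this call held without each library; the change was -3.93 without day 19 replicate 3, which held the highest of the 3 values. The step at day 16 over day 6 was -1.08 (SE 0.37) and did not pass (adjusted p = 0.111), although it passed in DESeq2, in limma voom, with only the 6 libraries of those days, and without day 19 replicate 1 or 3.

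Day 19 over day 16 gave -2.25 for LGR5 (SE 0.39, adjusted p = 0.0449). Omitting replicate 1, 2 or 3 of day 6 gave an adjusted p of 0.0750, 0.0748 or 0.0922, omitting those of day 16 gave 0.117, 0.0929 or 0.170, and omitting day 19 replicate 2 gave 0.122. It passed without day 19 replicate 1 (-2.01, adjusted p = 0.0042) and without replicate 3 (-2.85, adjusted p = 0.0398).

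WIF1, which binds Wnt proteins outside the cell and keeps them from their receptors, fell most of the inhibitors among the 10 genes. It measured 28.7, 12.6 and 37.6 CPM at day 6, 2.42, 1.94 and 1.17 CPM at day 16, and 0.583, 1.60 and 3.28 CPM at day 19. The lowest day 6 library was still above the highest later one. WIF1 fell by 3.84 (SE 0.61, adjusted p = 0.00443) at day 16 and stood at -3.85 (SE 0.61, adjusted p = 0.0025) at day 19, each over day 6; on omitting day 19 replicate 3 the second value was -4.57. Days 19 and 16 overlapped, with a change of -0.02 (SE 0.62, adjusted p = 0.987). Both calls against day 6 held without each library in turn.

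SFRP1 and SFRP2 are secreted decoys that share the Wnt-binding domain of Frizzled receptors. SFRP1 measured 335, 159 and 222 CPM at day 6, 134, 143 and 172 CPM at day 16, and 67.1, 117 and 125 CPM at day 19. Day 16 overlapped with day 6, while all day 19 libraries were below all of day 16. Its change was -0.67 (SE 0.31, adjusted p = 0.255) at day 16 over day 6 and -0.54 (SE 0.31, adjusted p = 0.291) at day 19 over day 16. Only day 19 over day 6 passed, at -1.21 (SE 0.31, adjusted p = 0.0218), and it no longer did so on omitting day 6 replicate 1 (-0.91, adjusted p = 0.0729) or replicate 3 (-1.26, adjusted p = 0.0564).

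SFRP2 measured 122, 171 and 141 CPM at day 6, 83.0, 102 and 72.9 CPM at day 16, and 68.7, 60.7 and 69.7 CPM at day 19. The days did not overlap, and the 3 day 19 libraries were close together. SFRP2 fell by 0.76 (SE 0.19, adjusted p = 0.0364) at day 16 over day 6. Leaving out any library of those days ended this call, with adjusted p of 0.0519, 0.154 or 0.114 for replicate 1, 2 or 3 of day 6, and of 0.130, 0.0514 or 0.146 for those of day 16. It fell by 1.13 (SE 0.19, adjusted p = 0.00344) at day 19 over day 6, which held without each library. Day 19 over day 16 gave -0.37 (SE 0.19, adjusted p = 0.248).

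The stromal marker sum also differed between days. It was 18250 to 22673 CPM at day 16, against 29260 to 32367 CPM at day 6, and 19323 to 28639 CPM at day 19. None of its 10 genes was called in edgeR at day 16 or day 19 over day 6. At day 16 over day 6, 3 stromal genes had an unadjusted p under 0.05, DESeq2 called 2 and voom called 3. At day 19 over day 6 an unadjusted p under 0.05 was found for 1, DESeq2 called 1 and voom called 5. Over all 16098 genes, these counts were 3403, 2274 and 3783 at day 16 over day 6. They were 6138, 4932 and 9405 at day 19 over day 6. The sum follows its collagen genes. COL1A1, COL1A2 and COL3A1 together held 11718 to 16794 CPM at day 16, against 23913 to 26178 CPM at day 6, and 11915 to 20989 CPM at day 19. The other 7 stromal genes, among them VIM, DCN and PDGFRA, held 5880 to 6532 CPM at day 16, against 5346 to 6598 CPM at day 6, and 5844 to 7650 CPM at day 19.

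Ratios of the SFRP genes to the stromal markers, chosen after the values were seen, depend on which of these is the base. Per 1000 CPM of the whole list, SFRP2 stood at 3.77, 5.86 and 4.45 for day 6, 3.991, 4.48 and 3.996 for day 16, and 2.71, 3.14 and 2.43 for day 19, so that days 16 and 6 overlapped. Per 1000 CPM of the 7 genes other than collagens it stood at 19.7, 32.0 and 21.4 for day 6, 13.0, 17.3 and 11.2 for day 16, and 11.8, 8.20 and 9.11 for day 19, and every later library was below every day 6 library. SFRP1 stood at 10.3, 5.44 and 7.01 (day 6), 6.45, 6.32 and 9.45 (day 16), and 2.65, 6.04 and 4.36 (day 19) over the whole list, with the days overlapping in part. Over the 7 other genes it stood at 54.1, 29.8 and 33.7 (day 6), 21.0, 24.4 and 26.4 (day 16), and 11.5, 15.7 and 16.3 (day 19), and no days overlapped.

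AXIN2, a scaffold of the complex that destroys beta-catenin and a widely used readout of canonical signalling, was lower on the later days. It measured 11.97, 10.1 and 16.7 CPM at day 6, 5.48, 3.53 and 5.05 CPM at day 16, and 4.27, 0.899 and 0.846 CPM at day 19. Every later library was below every day 6 library, and day 19 replicate 1 fell within the day 16 range while replicates 2 and 3 were below it. AXIN2 fell by 2.67 (SE 0.58, adjusted p = 0.0108) at day 19 over day 6, a call that held without each library. The change at day 16 over day 6 was -1.46 (SE 0.54, adjusted p = 0.149) and did not pass in edgeR with all libraries. At a like size it passed in voom (-1.55, adjusted p = 0.00281), with only the 6 libraries of those days (-1.44, adjusted p = 0.00824) and without day 19 replicate 1 (-1.46, adjusted p = 0.00472). Without day 19 replicate 1 the day 19 change over day 6 was -3.85 (adjusted p = 4.77e-05), and that over day 16 was -2.40 (adjusted p = 0.000891) in place of -1.21 (SE 0.57, adjusted p = 0.222). Voom also called the last with all 9 libraries (-2.26, adjusted p = 0.00855).

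LEF1, a nuclear partner of beta-catenin that is itself a target of the pathway, moved little. It measured 46.6, 43.5 and 45.7 CPM at day 6, 37.3, 38.7 and 45.5 CPM at day 16, and 40.5, 32.0 and 24.4 CPM at day 19. Day 16 overlapped with both other days, and all day 19 libraries were below those of day 6. No comparison passed in edgeR with all libraries: the change was -0.16 (SE 0.21, adjusted p = 0.768) at day 16 over day 6, -0.33 (SE 0.21, adjusted p = 0.335) at day 19 over day 16 and -0.49 (SE 0.21, adjusted p = 0.115) at day 19 over day 6. Without day 19 replicate 1 it passed at -0.51 (adjusted p = 0.0256) over day 16 and -0.67 (adjusted p = 0.0058) over day 6. Voom, fitted to all 9 libraries, called it at -0.50 (adjusted p = 0.0235) over day 16 and -0.68 (adjusted p = 0.00217) over day 6.

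**Figure D2:**
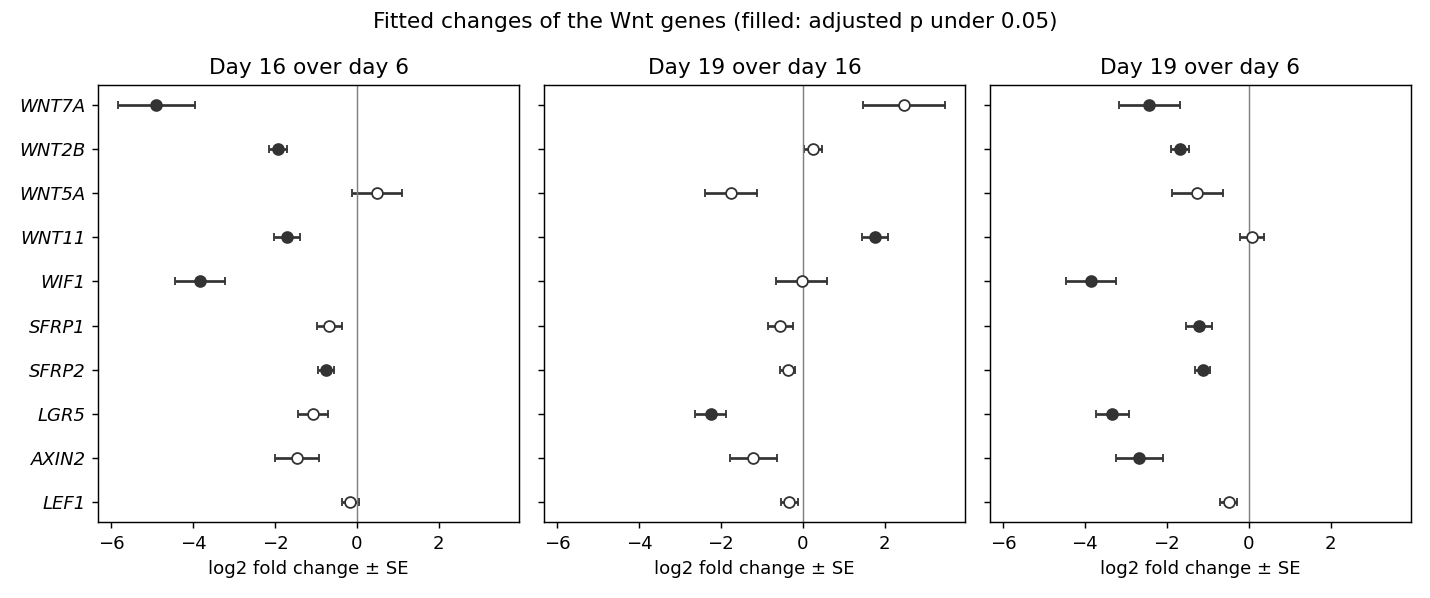
Log2 fold change (horizontal axis) with its SE (bars) of the 10 Wnt genes (vertical axis) for day 16 over day 6, day 19 over day 16 and day 19 over day 6, from the fit to all 9 libraries. Filled points passed at adjusted p under 0.05. No filled point lies right of 0 except WNT11 at day 19 over day 16, and 7 genes are filled left of 0 at day 19 over day 6.

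Counted together, 5 of the 10 genes fell and 0 rose at day 16 over day 6 in edgeR. Of all genes tested, 3.74% fell and 5.12% rose. At unadjusted p under 0.05, 7 were lower and 0 higher, where 3403 of all 16098 genes passed in either direction. DESeq2 called 6 lower and 0 higher, where it called 2274 of all genes. Voom called 7 lower and 1 higher, where it called 3783 of all genes. At day 19 over day 6, 7 fell and 0 rose, where 10.2% of all genes fell and 12.7% rose. At unadjusted p under 0.05, 8 were lower and 0 higher, where 6138 of all genes passed in either direction. DESeq2 called 7 lower and 0 higher, where it called 4932 of all genes. Voom called 9 lower and 0 higher, where it called 9405 of all genes. For day 19 over day 16, 1 fell and 1 rose, where 0.683% of all genes fell and 0.516% rose. The F test over the 3 days called 7 of the 10 (WNT7A, WNT2B, WNT11, WIF1, SFRP2, LGR5 and AXIN2), where it called 19.6% of all genes. The median log2 change of the 10 genes was -1.27 at day 16 over day 6 and -1.47 at day 19 over day 6, beside medians over all genes of -0.000273 and 0.0225. At day 19 over day 16 it was -0.35, beside 0.0128. Each pair of comparisons shares the libraries of a day, so the counts are not independent of each other. The 10 genes were chosen with earlier results of these data known, which may in part set these counts.

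Leaving out day 19 replicate 1 changed the reading of day 19 for all genes and for these 10. Then 9 of the 10 fell and 0 rose over day 6, where 27.0% of 16407 genes tested fell and 27.2% rose. The comparison of day 19 with day 16 gave 4 lower (WNT5A, LGR5, AXIN2 and LEF1) and 1 higher (WNT11), where 23.1% of all genes fell and 21.6% rose. Replicate 1 held 6.58 times the mean CPM of replicates 2 and 3 for WNT5A, 4.90 times for AXIN2 and 4.04 times for WNT7A. For WIF1 it held 0.239 times that mean. Of the 10 genes, 3 were over 2-fold higher and 1 over 2-fold lower in replicate 1 than in that mean on the log2(CPM + 0.5) scale, where 16.9% and 14.4% of all genes were. For WNT11, SFRP1 and LGR5 it held 0.553, 0.556 and 0.561 times the mean.

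**Figure D3:**
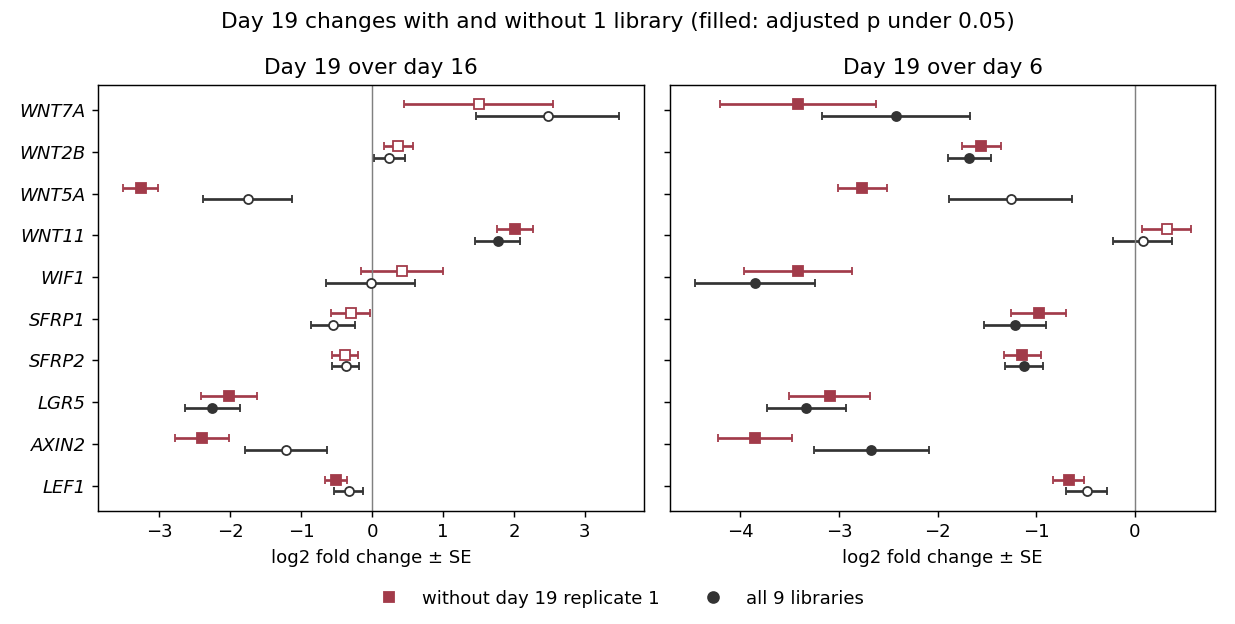
Log2 fold change with SE (horizontal axis) of the 10 Wnt genes at day 19 over day 16 and over day 6, without day 19 replicate 1 (squares) and with all 9 libraries (circles). Filled symbols passed at adjusted p under 0.05. WNT5A and LEF1 pass over both earlier days only in the fit without that library, and AXIN2 passes over day 16 only there.

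Other genes of the pathway were read from a list of 84 set by role, of which 77 had a row under that name and 64 were tested. The 7 others (WNT6, FZD8, LGR6, DKK4, CSNK1E, NKD2 and SP5) were not analysed here, and 13 were below the count filter. At day 16 over day 6, 4 rose and 5 fell, where 5.12% of all genes rose and 3.74% fell. At day 19 over day 6, 5 rose and 16 fell, where 12.7% of all genes rose and 10.2% fell. Between day 19 and day 16 edgeR called 0 of 64, with 5 higher and 9 lower at unadjusted p under 0.05. Of all 16098 genes, edgeR called 193, and 3946 had an unadjusted p under 0.05, both directions together. DESeq2 called 4 listed genes higher and 6 lower, where it called 1756 of all genes. Voom called 4 higher and 23 lower, where it called 7291 of all genes. Without day 19 replicate 1, 10 of 66 listed genes tested rose and 29 fell at day 19 over day 6, where 27.2% of all genes rose and 27.0% fell. In the same fit, 6 rose and 22 fell at day 19 over day 16, where 21.6% of all genes rose and 23.1% fell. With all libraries the list's median log2 change was -0.16 at day 16 over day 6 and -0.39 at day 19 over day 6. These genes were picked by role, with earlier results of these data known. The shares of all genes are given for description, and an excess over them was not tested.

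Of 7 other ligands tested, 1 rose at day 16 over day 6, where 5.12% of all genes rose and 3.74% fell. At day 19 over day 6, 1 ligand rose and 2 fell, where 12.7% of all genes rose and 10.2% fell. WNT4, which is needed in the mouse uterus for stromal decidualization, averaged 7.86 ± 2.35 CPM on day 6, 52.8 ± 29.4 CPM on day 16 and 46.6 ± 17.9 CPM on day 19 (SD, 3 libraries each). It rose 6.70-fold at day 16 (adjusted p = 0.00566) and 5.91-fold at day 19 (adjusted p = 0.00446), each over day 6, and both calls held without each library. WNT9A averaged 6.75 ± 0.662, 6.46 ± 0.555 and 2.85 ± 0.361 CPM over the 3 days and fell by 1.24 (SE 0.26, adjusted p = 0.00896) at day 19 over day 6, which also held. WNT10A averaged 4.56 ± 2.12, 0.657 ± 0.595 and 0.440 ± 0.129 CPM and fell by 3.34 (SE 0.83, adjusted p = 0.0189) at day 19 over day 6. Omitting replicate 2 or 3 gave an adjusted p of 0.0668 or 0.0604 for day 6, and of 0.0555 or 0.0526 for day 19. WLS, the carrier that brings Wnt proteins to the cell surface, averaged 176 ± 12.8, 298 ± 39.5 and 206 ± 30.9 CPM and rose 1.69-fold at day 16 (adjusted p = 0.0321; 0.0604 to 0.132 without any one library of days 6 and 16).

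Of 9 other inhibitors tested, 2 rose and 3 fell at day 16 over day 6, where 5.12% of all genes rose and 3.74% fell. At day 19 over day 6, 2 inhibitors rose and 4 fell, where 12.7% of all genes rose and 10.2% fell. DKK1, which blocks the LRP5 and LRP6 co-receptors, measured 21.3, 58.4 and 39.3 CPM at day 6, 309, 199 and 64.5 CPM at day 16, and 981, 419 and 427 CPM at day 19. The days did not overlap, although day 16 replicate 3 came close to day 6. DKK1 rose 15.4-fold at day 19 over day 6 (log2 change 3.94, SE 0.64, adjusted p = 0.00292), which held without each library. Its 4.82-fold rise at day 16 over day 6 (adjusted p = 0.0466) was lost without 7 of the 9 libraries in turn, all but day 16 replicate 3 and day 19 replicate 1, with adjusted p of 0.0510 to 0.164 in those fits. DKK3, a related secreted protein, rose 1.71-fold at day 16 (adjusted p = 0.0287; 0.0706 to 0.142 in the 5 fits that lost it, those without day 6 replicate 2 or 3 or any day 16 library) and 1.89-fold at day 19 (adjusted p = 0.00721), each over day 6.

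On the other side, SFRP5, a relative of SFRP1, averaged 7.43 ± 2.24 CPM on day 6, 0.917 ± 0.410 CPM on day 16 and 1.80 ± 0.886 CPM on day 19 (SD, 3 libraries each), and fell by 3.00 (SE 0.52, adjusted p = 0.00683) at day 16 and 2.04 (SE 0.49, adjusted p = 0.016; 0.069 without day 6 replicate 3) at day 19 over day 6. FRZB, another Frizzled-related decoy, fell by 0.99 (SE 0.20, adjusted p = 0.00752) at day 19. APCDD1, a membrane inhibitor, fell by 1.21 at day 16 (adjusted p = 0.0375; 0.0863 to 0.144 without day 6 replicate 1 or 3 or any day 16 library) and 1.42 at day 19 (adjusted p = 0.0106). KREMEN1, a DKK1 receptor, fell by 1.34 (SE 0.26, adjusted p = 0.00621) at day 19 over day 6. SOSTDC1, which inhibits both Wnt and BMP signals, was lowest at day 16: 14.4 ± 4.15 CPM on day 6, 5.19 ± 0.376 CPM on day 16 and 12.8 ± 1.25 CPM on day 19, with a fall of 1.47 (SE 0.26, adjusted p = 0.00837) at day 16 over day 6 and a change of 1.31 (SE 0.26, adjusted p = 0.0507) at day 19 over day 16, which did not pass; without day 19 replicate 1 it was 1.23 and passed (adjusted p = 0.00471).

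Of 6 other feedback and target genes tested, 2 fell at day 16 and 4 at day 19, each over day 6, and 0 rose. Of all genes, 3.74% fell and 5.12% rose at day 16, and 10.2% fell and 12.7% rose at day 19. NKD1, an inhibitor that the pathway induces against itself, averaged 25.2 ± 4.83 CPM on day 6, 6.78 ± 1.80 CPM on day 16 and 3.01 ± 1.01 CPM on day 19 (SD, 3 libraries each). It fell by 1.89 (SE 0.31, adjusted p = 0.00538) at day 16 and by 3.07 (SE 0.33, adjusted p = 0.000419) at day 19 over day 6, and both calls held without each library. MSX1, a homeobox factor of the receptive mouse uterus, averaged 175 ± 10.1, 46.7 ± 12.9 and 49.8 ± 22.6 CPM and fell by 1.90 at day 16 (adjusted p = 0.00977; 0.0515 or 0.0503 on omitting day 16 replicate 1 or 2) and by 1.81 at day 19 (adjusted p = 0.0065). CCND1, a cyclin of entry into the cell cycle, fell by 0.88 (SE 0.18, adjusted p = 0.00924) at day 19 over day 6. MSX2 fell by 1.53 (adjusted p = 0.0421), but 17.1 CPM in day 6 replicate 1 stood far above 4.63 and 6.34 CPM in replicates 2 and 3. Without that library its change was -0.78 (adjusted p = 0.157), and the call was lost without 7 of the 9 libraries in turn, all but day 6 replicate 2 and day 19 replicate 1. The 6 listed cell cycle markers summed to 11.9 to 15.3 CPM at day 16 and 14.2 to 29.0 CPM at day 19, against 69.9 to 142 CPM at day 6. Of the 6, edgeR called 3 lower at day 16 and 1 lower at day 19, each over day 6, and 0 higher. Counting both directions, DESeq2 called 4 and 3, and voom called 3 and 2. Of all genes, DESeq2 called 2274 and 4932, and voom called 3783 and 9405. The part of these markers in the target genes' decreases was not tested.

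Receptors and intracellular parts gave no calls in edgeR at day 16 over day 6 with all 9 libraries. In that comparison DESeq2 called 1 cytoplasmic gene higher and 1 lower. Voom called 1 receptor lower, and 1 gene of the R-spondin branch higher and 1 lower. It also called 1 cytoplasmic gene higher and 2 lower, and 1 nuclear gene higher and 2 lower. Of all 16098 genes, DESeq2 called 2274 and voom 3783 in that comparison. By day 19 in edgeR, 2 of 13 receptors, 1 of 5 genes of the R-spondin branch and 3 of 11 cytoplasmic genes fell, while 1 cytoplasmic and 1 of 11 nuclear genes rose, where 10.2% of all genes fell and 12.7% rose. Without day 19 replicate 1, 5 receptors fell and 1 rose, 3 genes of the R-spondin branch fell, 6 cytoplasmic genes fell and 1 rose, and 5 nuclear genes fell and 4 rose, where 27.0% of all genes fell and 27.2% rose. With all 9 libraries at day 19 over day 6, voom called 9405 of all 16098 genes and DESeq2 called 4932. Voom called 5 nuclear genes lower and 4 higher, and 5 receptors lower and 1 higher. It also called 3 genes of the R-spondin branch lower, and 6 cytoplasmic genes lower and 1 higher. DESeq2 called 2 nuclear genes lower and 1 higher, and 2 receptors lower. It also called 1 gene of the R-spondin branch lower, and 4 cytoplasmic genes lower and 1 higher. The receptor FZD5 fell by 2.43 (SE 0.60, adjusted p = 0.0183; 0.057 without day 6 replicate 1, 0.0504 without day 19 replicate 3), with 7.09, 1.098 and 1.27 CPM in the day 19 libraries. Without the first of these its change was -3.84. The receptor FZD6 fell by 1.25 (adjusted p = 0.0342), a call lost without 7 of the 9 libraries in turn, all but day 16 replicate 2 and day 19 replicate 1, with adjusted p of 0.0504 to 0.108. RNF43, a ligase that removes Frizzled receptors from the surface, fell by 1.20 (adjusted p = 0.028; 0.0631 to 0.0809 without any day 6 library or day 19 replicate 2).

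CTNNB1, which encodes beta-catenin, averaged 774 ± 46.8 CPM on day 6, 472 ± 28.5 CPM on day 16 and 396 ± 144 CPM on day 19 (SD, 3 libraries each). It fell by 0.97 (SE 0.26, adjusted p = 0.0245) at day 19 over day 6, with adjusted p of 0.0597 to 0.0859 without any day 6 library or day 19 replicate 2 or 3. DVL3, which relays the signal from Frizzled, fell by 1.11 (adjusted p = 0.0145; 0.0501 without day 6 replicate 1 and 0.052 without day 19 replicate 3). The kinase gene CSNK1A1 fell by 0.60 (adjusted p = 0.0477) and the kinase gene CSNK1D rose 1.45-fold (adjusted p = 0.0423). Both calls were lost without any library but day 19 replicate 1, with adjusted p up to 0.155 and 0.137. The co-repressor gene TLE2 rose 1.92-fold (adjusted p = 0.0354), a call lost without any library but day 19 replicates 1 and 2, with adjusted p up to 0.123.

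**Figure D4:**
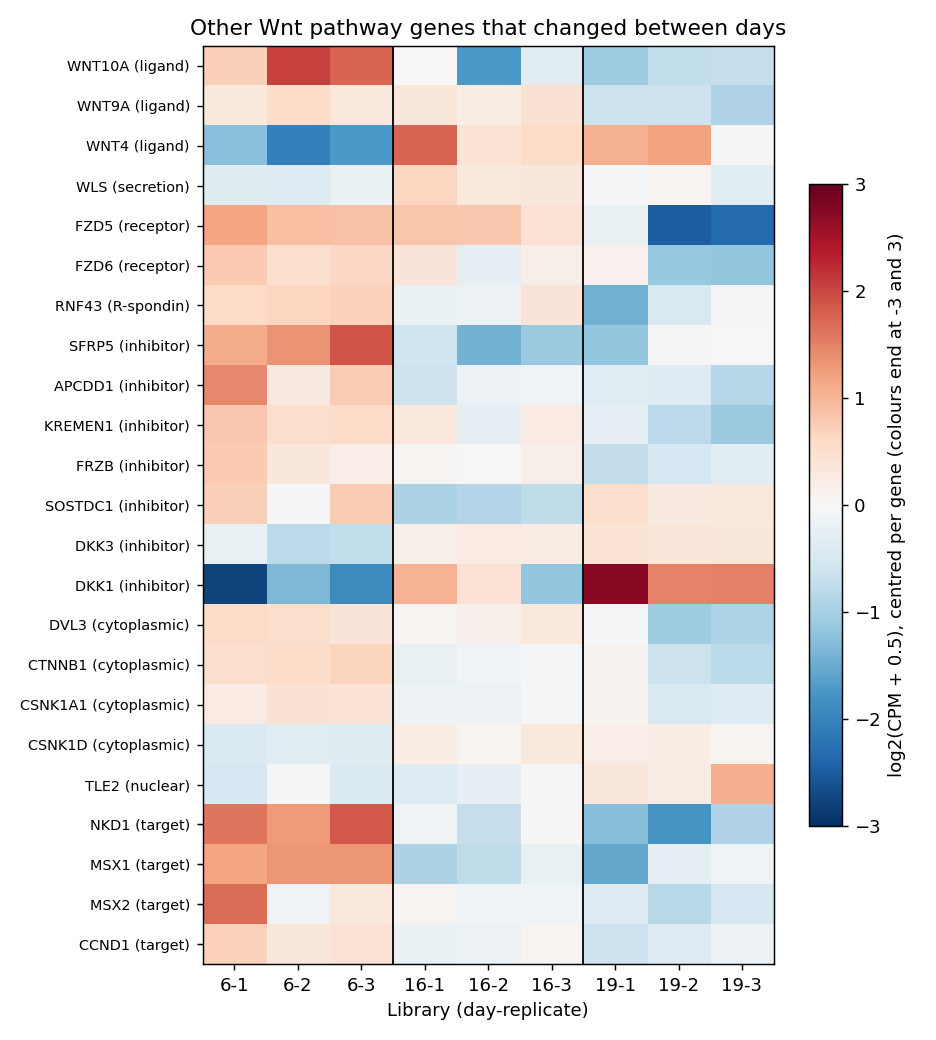
The 23 genes of the wider Wnt list that passed in at least 1 comparison (rows, with their role) in the 9 libraries (columns, day-replicate); colour is log2(CPM + 0.5) centred per gene, red high and blue low. DKK1 and WNT4 are low at day 6, most other rows are high there, and FZD5 is lowest in day 19 replicates 2 and 3.

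The profiles most like those of the 7 Wnt genes called by the F test were looked for among 9788 tested genes with a symbol and a mean log2 CPM of at least 3, by the root mean square difference of centred log2 CPM over the 9 libraries. For WNT2B the nearest was ETFA, a mitochondrial electron carrier, at 0.146, where the median gene lay at 0.942. The day means of ETFA were 142, 42.1 and 50.5 CPM. LGR5 was nearest to GREB1, an oestrogen-induced gene, at 0.342 (day means of 100.2, 54.8 and 12.7 CPM), then to CEMIP and ADAMTS7. SFRP2 lay 0.1002 from SCD5, a fatty acid desaturase, and next came ZBTB47 and ITGA9. WIF1 was nearest to SEPT4 at 0.502, CIDEA and GLI1, the last a transcription factor of hedgehog signalling. AXIN2 was nearest to TENM3 at 0.298, DPY19L4 and ALDH1A2, an enzyme of retinoic acid synthesis. WNT11 was nearest to POLR2L and RASL10B, at 0.324 and 0.325, and ACY1. WNT7A lay 0.515 from ATP6V1C2, a proton pump subunit, whose day means were 115, 5.30 and 24.5 CPM, and then from MFSD2A and ODC1. GRTP1 and AP1S2 followed ETFA for WNT2B.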

How the data were processed

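The authors deposited 1 table of raw read counts per gene for the 9 libraries. Per the labels' protocols, poly(A) RNA was fragmented with RNase III and sequenced on an Ion Proton; aligner, counter, genome build, annotation and strand setting were not given in the labels or the table. No pair of libraries of a day agreed within sampling noise. From the counts, genes passing edgeR's filterByExpr (16098 of 25671) were scaled by TMM and fitted with all 9 libraries and day as the factor (edgeR 4.0.16, robust quasi-likelihood F test, R 4.3.3; common biological coefficient of variation 0.318), with Benjamini-Hochberg adjustment over all genes tested and calls at 0.05. The SE is the absolute log2 change divided by the square root of F. Alternatives were DESeq2 1.42.0, limma 3.58.1 voom with quality weights, other scalings and filters, a fit of 6 libraries, a replicate block and leaving out each library. Poisson intervals and limits for 0 counts cover counting error only. Named genes are the 10 Wnt genes, at most 25 genes of a wider list that passed, and the 3 nearest profiles of each Wnt gene called by the F test. Marker lists covered epithelium, glands, stroma, smooth muscle, endothelium, macrophages, T and NK lymphocytes, trophoblast, testis germ cells and the cell cycle. Members and lists were chosen with earlier results of these data known. The edgeR fit was tested on simulated data for day 16 over day 6, with the same spread for all genes. That test did not cover DESeq2, voom, the day 19 comparisons, changes in low-count genes or a library that stands apart.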

Additional observations from a re-analysis of the deposited data

How the results depend on the processing

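The 7 decreases at day 19 over day 6 were called under both other scalings, without the low-count filter, in DESeq2 and in voom; a filter of 1 CPM in 6 libraries left WNT7A untested, and the 6 libraries of those days alone ended the calls of WNT7A (adjusted p = 0.0695) and SFRP1 (0.0582). At day 16 over day 6, 1427 genes, 5 Wnt genes and 9 of the wider list were called; DESeq2 called 2274 genes, voom 3783 genes with 8 Wnt and 21 wider genes, and the 6 libraries of those days 3092 genes with 18 wider genes. Leaving out 1 library gave 664 to 3345 genes, 3 to 7 Wnt genes and 4 to 18 wider genes. Between day 19 and day 16, 193 genes, 2 Wnt genes and 0 wider genes were called; DESeq2 called 1756 genes and 10 wider genes, voom 7291, 5 and 27, and the 6 libraries 0 genes and 0 Wnt genes. A filter of 1 CPM in 6 libraries and a fit without robust estimation each called 1 wider gene. Leaving out 1 library gave 0 to 7331 genes, 0 to 5 Wnt genes and 0 to 28 wider genes. Between day 19 and day 6, 3684 genes and 21 wider genes were called; voom called 9405 and 39, the 6 libraries 2357 and 13, and leaving out 1 library 1928 to 8891 and 12 to 39. The F test called 3156 genes and 17 wider genes; DESeq2 called 5096 genes, voom 10184 and 40, and leaving out 1 library 1416 to 9703 and 7 to 41. Directions turned for WIF1 at day 19 over day 16 (0.28 in voom, -0.73 to 0.42 without 1 library) and WNT11 at day 19 over day 6 (-0.14 to 0.32 without 1 library), neither called in the fit to all libraries. The cause of these shifts was not tested. Depth limits WNT7A most, with 4 counts over the day 16 libraries.

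For same-numbered libraries of different days, the correlation of their deviations from the day mean was -0.16 to 0.15 over 9 pairs, and 1 pair was over 0.1. Low values cannot exclude pairing, because each deviation is taken from a mean of only 3 libraries. With the replicate number as a block, 1100 genes, 4 Wnt genes and 5 wider genes were called at day 16 over day 6, 0, 0 and 0 at day 19 over day 16, and 2899, 7 and 17 at day 19 over day 6. SFRP2 at day 16 over day 6 (adjusted p = 0.0713), and WNT11 (0.0998) and LGR5 (0.0852) at day 19 over day 16, were not called with the block.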
